A study of Mus musculus with 2 samples.

Results

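The genes of glycolysis described here were 10 of the 32245 gene symbols in the count matrices: Hk2, Gpi1, Aldoa, Tpi1, Gapdh, Pgk1, Pgam1, Eno1, Pkm and Ldha. They were chosen by name, as the enzymes of the pathway from glucose to lactate, and were counted in every barcode with at least 1500 unique molecular identifiers (UMIs, which tag single captured transcripts), at least 200 genes and at most 10% mitochondrially coded UMIs. The data were droplet-based single-cell 3′ RNA sequencing of sorted Tmem119-positive microglia, the brain's own macrophages, from mouse hippocampus. The first group, 1 library, came from mice whose growth had been restricted in the womb (fetal growth restriction, FGR), and the other, 1 library, from Control mice. Mice of both groups were 3 weeks old and carried Tmem119-tdTomato+/-, a red reporter at a gene that marks microglia. The way growth restriction was produced and the number of animals pooled per library were not stated by the sources used here.

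The rule left 8618 FGR cells and 10687 Control cells, with 45441515 and 53560293 UMIs, medians of 4919.5 and 4657 UMIs a cell and 31 cell barcodes in common. All 12 microglial markers were detected in both libraries and summed to 32714 UMI counts-per-million (CPM) in the FGR library and 34088 CPM in the Control library. The 5 marker lists of other cell types summed to between 34.5 and 330.1 CPM in the FGR library and between 49.2 and 192 CPM in the Control library, the highest being that of astrocytes, mainly Slc1a3. With 1 library a group, differences could not be checked against replicates, and none was tested. Intervals are at 95% and cover only the error of counting, so higher and lower are said of these 2 libraries.

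Glycolysis breaks glucose down to pyruvate in the cytosol and yields ATP without oxygen. Hexokinase, phosphofructokinase and pyruvate kinase catalyse its practically irreversible steps, and lactate dehydrogenase turns pyruvate to lactate while restoring NAD+. Several steps have isozymes coded by separate genes, and many of these genes are targets of the hypoxia-inducible factor HIF-1. Microglia use both glycolysis and mitochondrial respiration, and inflammatory stimulation of microglia in culture is known to raise glycolysis.

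Promoter sequence is shown for 3 of the genes, because the results turn on them: Hk2, which had the lowest ratio of the 10 in activated and in deep cells, Pgk1, which had the highest in activated cells, and Ldha, whose share of its step differed between the libraries. Each is the 250 bases before a RefSeq transcript start in GRCm38.p6, read 5′ to 3′ on the gene's strand. The Hk2 window is chr6:82774455-82774704 on the minus strand, the Pgk1 window chrX:106186850-106187099 on the plus strand and the Ldha window chr7:46845554-46845803 on the plus strand. Capitals mark ACGTG on either strand (CACGT on the strand shown), the core of the motif bound by HIF-1, and neighbouring matches may overlap.
Hk2: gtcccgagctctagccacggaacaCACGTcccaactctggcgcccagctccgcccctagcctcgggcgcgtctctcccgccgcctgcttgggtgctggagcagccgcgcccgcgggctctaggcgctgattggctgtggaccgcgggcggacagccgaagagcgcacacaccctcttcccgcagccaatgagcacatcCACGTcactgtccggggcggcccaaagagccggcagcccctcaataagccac
Pgk1: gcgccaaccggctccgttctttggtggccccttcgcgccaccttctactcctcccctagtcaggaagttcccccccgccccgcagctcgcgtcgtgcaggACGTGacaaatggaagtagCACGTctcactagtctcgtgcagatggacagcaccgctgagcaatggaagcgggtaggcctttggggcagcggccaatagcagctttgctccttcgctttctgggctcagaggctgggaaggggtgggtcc
Ldha: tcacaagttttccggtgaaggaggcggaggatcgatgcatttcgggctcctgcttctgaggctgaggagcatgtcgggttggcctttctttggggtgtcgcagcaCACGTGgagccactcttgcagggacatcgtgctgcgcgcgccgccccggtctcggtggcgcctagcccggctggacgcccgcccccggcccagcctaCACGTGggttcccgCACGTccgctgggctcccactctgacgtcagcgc
The Hk2 window held 2 matches, the Pgk1 window 2 and the Ldha window 5. In the Ldha window, 4 of the 5 are the 2 strands of CACGTG, the E-box letters read by Myc and related factors, which it holds 2 times. The window of another Ldha transcript start, chr7:46846832-46847081, is not shown and held 0 matches to ACGTG and 0 to CACGTG. Among all 10 genes, 6 held ACGTG in at least 1 window (Hk2, Aldoa, Pgk1, Pgam1, Pkm and Ldha), and 4 (Gpi1, Tpi1, Gapdh and Eno1) did not. Of all 27025 genes in the table, 18.5% held it in at least 1 window of this length, and by window it was 7 of the 16 of these genes and 16.6% of all 32851. Among the 7 are 2 overlapping windows of Aldoa that hold the same match. CACGTG was held by 6.86% of all genes and, among the 10 genes, by Ldha alone. A match describes letters in a window and is not a measured binding site.

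Together the 10 genes gave 1627 CPM in the FGR library and 1514 CPM in the Control library, or 0.163% and 0.151% of all UMIs in cells. The 3′ protocol counts 1 end per molecule, so levels are counts per molecule and were not divided by length. Hk2, which phosphorylates glucose on entry and can sit on the mitochondrial outer membrane, had 430.4 CPM in the FGR library and 393 CPM in the Control library. Gapdh, which oxidises glyceraldehyde 3-phosphate, had 424 CPM in the FGR library and 399.8 CPM in the Control library. These genes stood well above the other 8, and their intervals overlapped each other in both libraries. Aldoa, the aldolase that splits fructose 1,6-bisphosphate, had 150.0 CPM in the FGR library and 131 CPM in the Control library. Pkm, the pyruvate kinase gene, had 138 CPM in the FGR library and 131 CPM in the Control library. These came next in the order, with Aldoa above Pkm in the FGR library and overlapping intervals in the Control library.

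Ldha, which codes the lactate dehydrogenase subunit known for favouring lactate formation, had 96.8 CPM in the FGR library and 85.9 CPM in the Control library. Eno1, the main enolase gene outside muscle and neurons, had 90.2 CPM in the FGR library and 79.9 CPM in the Control library. Pgam1, the phosphoglycerate mutase, had 88.9 CPM in the FGR library and 86.6 CPM in the Control library. These genes and Tpi1 formed a narrow middle group. Tpi1, which interconverts the triose phosphates, had 86.6 CPM in the FGR library and 92.2 CPM in the Control library. Gpi1, which turns glucose 6-phosphate to fructose 6-phosphate, had 72.4 CPM in the FGR library and 69.5 CPM in the Control library. Pgk1, the first step that yields ATP, was the lowest, with 49.8 CPM in the FGR library and 45.6 CPM in the Control library. Within the middle group, Ldha stood above Eno1 beyond their intervals in both libraries and Tpi1 above Pgam1 in the Control library. The intervals of the other neighbours overlapped, and Tpi1 was the gene whose place changed most, ranking 8 of 10 in the FGR library, against 5 of 10 in the Control library.

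**Figure D1:**
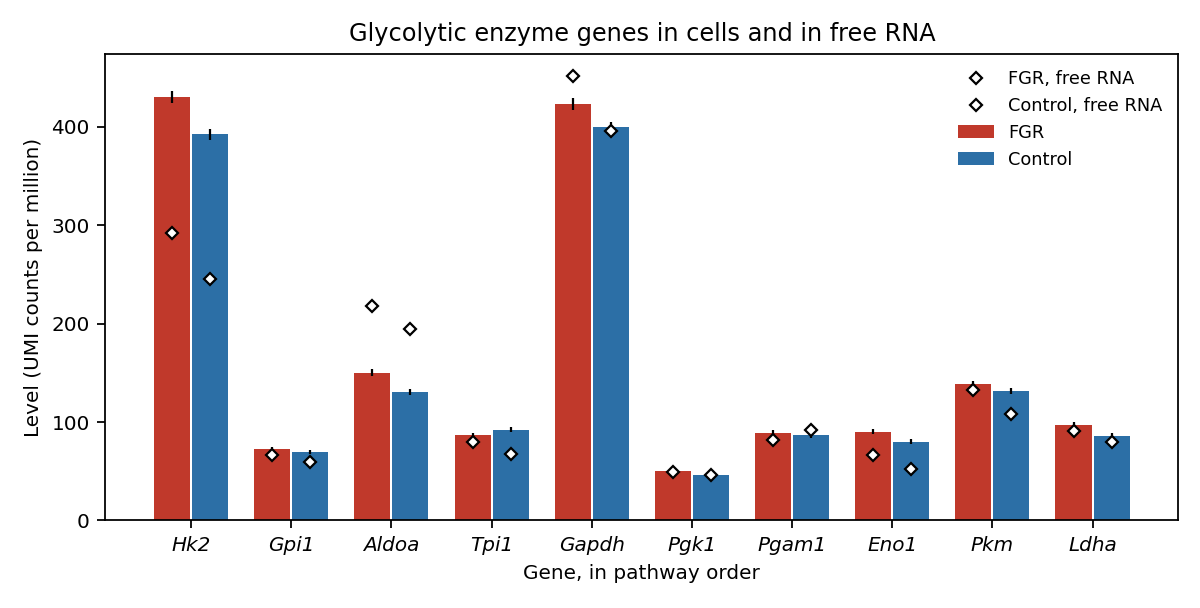
Levels of the 10 glycolytic enzyme genes in cells (bars, with 95% counting intervals) and in free RNA, taken from barcodes of 10 to 100 UMIs (diamonds), in UMI counts-per-million, FGR left of Control. Hk2 and Gapdh stand highest, between 393 and 430.4 CPM in cells, and Aldoa is the gene furthest above its cell level in free RNA.

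Barcodes with 10 to 100 UMIs hold free RNA rather than cells, and all 10 genes were present there. Hk2 had 292 CPM in FGR free RNA and 245 CPM in Control free RNA, and its level in cells was 1.47 times (1.37 to 1.59) and 1.60 times (1.48 to 1.73) that level. Eno1 in cells was 1.37 and 1.52 times its free RNA level in the FGR and Control libraries. Aldoa was the reverse, with 218 CPM in FGR free RNA and 195 CPM in Control free RNA, so that cells had 0.688 times (0.632 to 0.751) and 0.671 times (0.616 to 0.732) as much. The other 7 genes lay between 0.938 and 1.36 times their free RNA level. From the globin gene Hbb-bs, free RNA was estimated at 2.38% of the UMIs in FGR cells and 3.37% in Control cells.

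The first comparison asked how the enzyme genes differed between FGR and Control microglia. The differences were small and mostly upward. Their summed level was 1.08 times as high in the FGR library as in the Control library (1.06 to 1.09), and 9 of the 10 genes had a ratio (FGR over Control) above 1. A gene counted as measured from 50 CPM upward in either library, and 33.9% of 3512 such genes had a ratio above 1. Pgk1 was below 50 CPM in both libraries, so 9 of the 10 counted as measured. Their median log2 ratio was 0.08, against -0.07 over all genes measured, and it was 0.10 with Pgk1 included.

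The largest ratio was that of Aldoa, 1.15 (1.11 to 1.19), followed by Eno1 at 1.13 (1.08 to 1.18) and Ldha at 1.13 (1.08 to 1.17). Hk2 had 1.096 (1.08 to 1.12) and Pgk1 1.09 (1.03 to 1.15). Gapdh had 1.06 (1.04 to 1.08) and Pkm 1.05 (1.02 to 1.09). The intervals of Gpi1, 1.04 (0.993 to 1.09), and Pgam1, 1.03 (0.984 to 1.07), held 1. Tpi1 was lower in the FGR library over all cells, with a ratio of 0.939 (0.9001 to 0.979), but not in every range of cells described below. Whole intervals thus lay above 1 for 7 genes, where 23.0% of all genes measured did so, and below 1 for 1 gene, where 53.0% did. The 7 became 4 when averaged over 4 ranges of UMI total, 5 without the 6% deepest cells or thinned to 1500 UMIs a cell, and 9 when scaled by the median of ratios or averaged over ranges of immediate early UMIs.

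None of the 9 measured genes passed a size of 1.5-fold with its whole interval, in either direction. Over all genes measured 2.48% passed it higher and 1.17% lower in the FGR library. At 1.1-fold, Aldoa alone passed as higher, where 9.20% of all genes measured did, and none passed as lower, where 21.6% did. How many passed 1.1-fold depended on the cells and the scaling: 0 passed with each cell thinned to 1500 UMIs or without the 6% of cells with the most UMIs, and 4 passed with libraries scaled by the median of ratios. In free RNA the ratio of FGR over Control was above 1 for 9 of the 10 genes, from 1.07 for Pgk1 to 1.26 for Eno1, with Pgam1 at 0.889. Tpi1, lower in FGR cells, had 1.18 (0.967 to 1.44) in free RNA. After free RNA was subtracted, the median log2 ratio of the measured genes was 0.08.

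**Figure D2:**
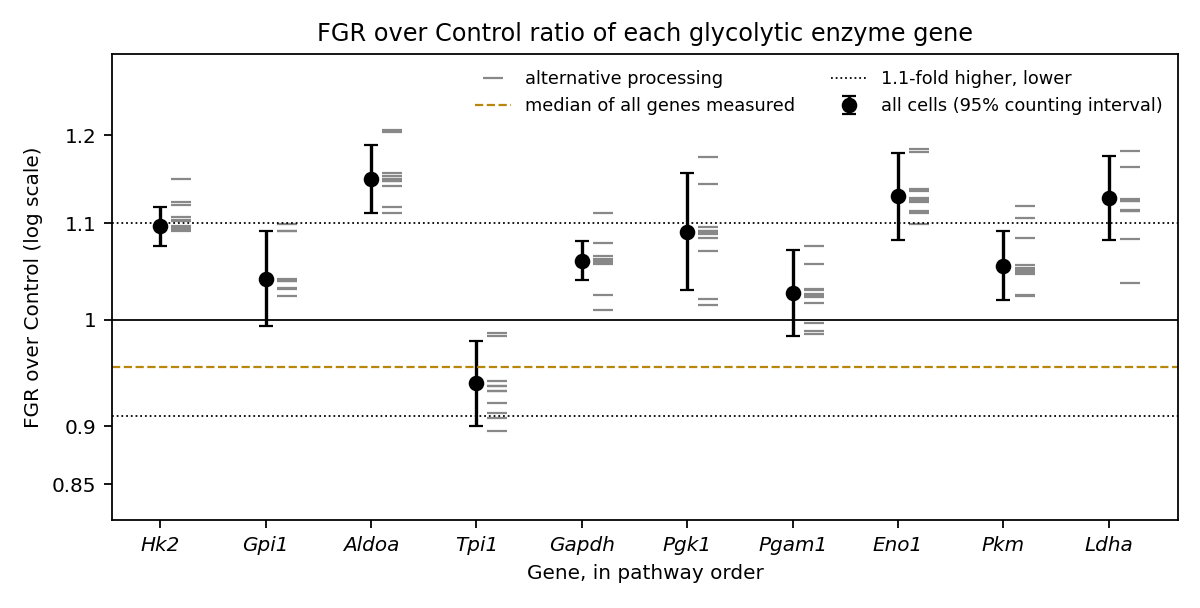
Ratio of FGR over Control for each gene on a log axis, with 95% counting intervals (black points), the values under 11 other ways of processing (grey dashes) and the median of all 3512 genes measured (dashed line). Aldoa, Eno1, Ldha and Hk2 stand highest, between 1.096 and 1.15, and Tpi1 alone lies below 1, at 0.939.

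The genes are protein-coding, and their whole-gene coordinates in GRCm38 (GENCODE M21) are chromosome 6, 82725025 to 82774454 for Hk2, chromosome 7, 126795234 to 126800751 for Aldoa, chromosome 6, 124810586 to 124814296 for Tpi1, chromosome 6, 125161715 to 125166467 for Gapdh and chromosome 7, 46841475 to 46855627 for Ldha. Some overlap other genes or have copies named after them. Hk2 overlaps the antisense gene Gm17034, Aldoa overlaps Fam57b, Tpi1 overlaps Spsb2 and Gapdh overlaps Iffo1, each on the opposite strand. No source used here states whether counting used strand, so reads of such pairs may not be separable. Gpi1 also overlaps Gm26762, Aldoa Gm44856 and Pkm Gm49759, which were not among the counted genes. Of these, Gm49759 lies on the same strand as Pkm. Aldoa, Gapdh, Pgk1, Pgam1, Eno1 and Ldha have copies in the annotation that bear their names, and likeness of sequence was not measured. Of these copies only Aldoart1, Aldoart2 and Eno1b were among the counted genes. Counts of the enzyme genes are uncertain to the extent that reads were shared with such copies.

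The next question was which isozyme gene carried each step. Of the 5 steps compared, lactate dehydrogenase differed most between the libraries. Among hexokinase UMIs, Hk2 made up 88.6% in FGR cells and 87.2% in Control cells. Hk3 had 8.13% and 9.69%, and Hk1, the main hexokinase of most brain cells, 3.22% and 2.88%. Phosphofructokinase, which is coded by genes outside the set of 10, was mostly Pfkl, the liver-type gene, with 94.5% in FGR cells and 94.2% in Control cells, at 56.8 and 50.4 CPM (ratio 1.13, 1.07 to 1.19). Pfkm and Pfkp, the muscle and platelet types, stayed at 2.60 CPM or less in both libraries.

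Aldoa made up 96.7% of aldolase UMIs in FGR cells and 95.1% in Control cells, the rest being Aldoc, which in brain is best known from astrocytes. Eno1 made up 88.6% and 88.3% of enolase UMIs, Eno3 8.83% and 9.06%, and Eno2, the neuronal enolase, 0.670% and 0.702%. Lactate dehydrogenase was mostly Ldhb, the subunit known from heart and neurons, with 373 CPM in the FGR library and 437 CPM in the Control library (ratio 0.853, 0.837 to 0.870). Ldha therefore held 20.6% of lactate dehydrogenase UMIs in the FGR library (Clopper-Pearson interval 20.1 to 21.2%) and 16.4% in the Control library (16.01 to 16.9%). Such a share is taken within a library and does not depend on scaling. It was 20.3% and 16.4% without cells holding markers of other cell types, and 20.7% and 16.4% after free RNA was subtracted. Over 4 ranges of immediate early UMIs, described below, it was 21.2, 20.9, 20.1 and 20.5% in FGR cells, from lowest to highest. In Control cells it was 14.7, 16.02, 18.6 and 18.4%, so the gap was narrower in the higher ranges. Intervals overlapped in the highest range, at 19.6 to 21.5% in 3250 FGR cells and 17.04 to 19.9% in 1476 Control cells. They also overlapped in the range below it, at 19.1 to 21.2% and 17.7 to 19.5%. Pgk2, Pklr and Ldhc had 0 UMIs in both libraries, which, at the limit of 3 counts of the total that a count of 0 allows, leaves for Pklr up to 0.0477% of pyruvate kinase UMIs in FGR cells and 0.0427% in Control cells.

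**Figure D3:**
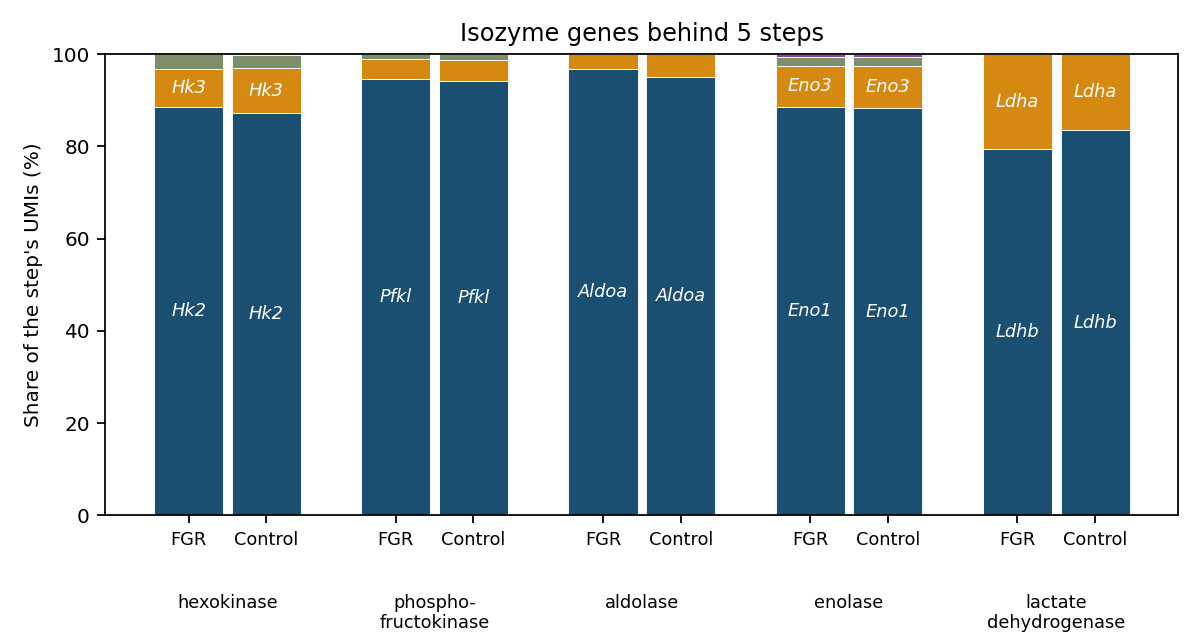
Share of each step's UMIs, in percent, by isozyme gene for 5 steps, FGR left of Control. A single gene holds over 87% of the first 4 steps, and the orange top of the last pair of bars, Ldha, is 20.6% in FGR cells and 16.4% in Control cells.

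Around the enzymes, single regulators of glycolysis had larger ratios than any of the 10 genes. Of 13 genes that regulate its flux, 4 were measured, and 2 of these passed 1.5-fold higher and 0 lower in the FGR library, where 2.48% and 1.17% of all genes measured did. Ddit4, a stress-induced inhibitor of mTORC1, had 304 CPM in the FGR library and 52.6 CPM in the Control library (ratio 5.78). Txnip, an inhibitor of glucose uptake and of thioredoxin, had 1745 CPM in the FGR library and 949 CPM in the Control library (1.84). Pfkfb3, whose product makes the activator of phosphofructokinase, had 77.6 CPM in the FGR library and 56.1 CPM in the Control library (1.38, 1.32 to 1.45). Pdk1, a kinase that shuts off pyruvate dehydrogenase, had 66.0 CPM in the FGR library and 73.0 CPM in the Control library (0.904, 0.862 to 0.948).

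Of 11 transporter genes 2 were measured, and 0 passed 1.1-fold in either direction. Slc2a5, which codes GLUT5, a fructose transporter long used as a microglial marker, was the most abundant of the hexose transporter genes, with 211 CPM in the FGR library and 204 CPM in the Control library (ratio 1.03, 1.01 to 1.06). Slc2a1, coding the glucose transporter GLUT1, had 28.8 CPM in the FGR library and 27.5 CPM in the Control library. Slc2a3, coding GLUT3, was low, with 9.20 CPM in the FGR library and 4.89 CPM in the Control library (ratio 1.88, 1.61 to 2.20), and Slc2a8, coding GLUT8, was lower at 0.814 (0.746 to 0.887). The lactate transporter genes Slc16a1 and Slc16a3 lay between 17.7 and 19.6 CPM in both libraries. Bsg, which codes the chaperone of these transporters, had a ratio of 1.06 (1.04 to 1.08).

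In downstream and side pathways no measured gene passed 1.1-fold, but few genes of the smaller lists reached the minimum level. Of 17 tricarboxylic acid cycle genes 12 were measured and 0 passed 1.1-fold in either direction, where 9.20% of all genes measured passed higher and 21.6% lower, with a median log2 ratio of -0.02. The largest differences among them were those of Dlst (ratio 1.12), Ogdh (0.892) and Sdhd (1.11). Of 8 pentose phosphate genes 4 were measured and 0 passed, with Pgls (0.922) the furthest from 1. None passed among the 3 measured genes of pyruvate entry to mitochondria, with Mpc1 at 0.964, the 2 of the glycogen and hexose branches, with Gnpda1 at 0.944, and Phgdh (0.902), the 1 measured gene of the serine and glycerol branches. Of 6 gluconeogenesis genes 0 reached the minimum level. With no minimum, 3 of 12 genes of the glycogen and hexose branches passed 1.1-fold, 2 of 8 of the serine and glycerol branches and 1 of 8 of pyruvate entry. The shares over all genes measured apply only above the minimum, so these last counts have no background to set them against.

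Among transcriptional regulators, Hif1a, the HIF-1 subunit stabilised by low oxygen, had 119 CPM in the FGR library and 113 CPM in the Control library (ratio 1.06, 1.02 to 1.096), and its partner Arnt had a ratio of 1.12. Of 14 further HIF targets 4 were measured, and 2 passed 1.1-fold higher, where 9.20% of all genes measured did: Mif, a cytokine, with a ratio of 1.44 (1.38 to 1.497), and P4ha1, a collagen prolyl hydroxylase, with 1.18 (1.15 to 1.21). Bnip3l, a mitophagy receptor gene, had 0.989. With no minimum level, 8 of the 14 passed 1.1-fold in one direction or the other. No share over all genes was at hand without the minimum, so this count has no background to set it against. Of 9 other regulators 6 were measured, with a median log2 ratio of -0.12. At 1.1-fold 2 passed higher and 1 lower, where 9.20% and 21.6% of all genes measured did. Myc, which activates many glycolytic genes, had 54.8 CPM in the FGR library and 32.0 CPM in the Control library (1.71, 1.61 to 1.82). It passed 1.5-fold, where 2.48% of all genes measured passed higher. Mlxip, a glucose-sensing factor, had 1.44 (1.39 to 1.503), and Trp53 was lower with 0.787 (0.754 to 0.821). The other measured regulators of this list also had ratios below 1.

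The cells were then divided by counts of other genes, each cell first being thinned to 1500 UMIs so that depth did not set its class. The clearest pattern lay in cells carrying transcripts of activated microglia. With at least 3 UMIs summed over Lgals3, Lpl, Spp1, Itgax, Gpnmb, Fabp5, Igf1 and Ch25h, these were 73 FGR cells (0.847%) and 60 Control cells (0.561%). Such a class is a range of a count and not a cell type: 31 FGR and 35 Control cells lay at the limit, and 105 and 126 lay 1 UMI below it. In these cells the 10 genes summed to 3244 CPM, against 1609 CPM in the remaining FGR cells, and to 2675 CPM, against 1506 CPM in the remaining Control cells.

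Pgk1 had the largest ratio of activated to remaining cells. It had 192 CPM in activated FGR cells, against 48.1 CPM in the remaining FGR cells, a ratio of 3.98 (3.22 to 4.88), and the ratio was 3.25 in the Control library. Pkm had 409 CPM in activated FGR cells, against 135 CPM in the remaining FGR cells, with ratios of 3.02 in FGR cells and 2.90 in Control cells. Gapdh had 1042 CPM in activated FGR cells, against 417 CPM in the remaining FGR cells, and 749 CPM in activated Control cells, against 397 CPM in the remaining Control cells. In both libraries these genes stood higher in activated cells. Ratios in the FGR and Control libraries were 2.79 and 2.19 for Tpi1, 2.50 and 2.11 for Aldoa, 2.32 and 2.19 for Ldha, 1.96 and 1.92 for Pgam1, 1.55 and 1.67 for Eno1, and 1.58 and 1.40 for Gpi1.

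Whole intervals lay above 1 for 9 of the 10 genes in the FGR library, where 18.1% of all genes measured did so, and for 8 of 10 in the Control library, where 15.7% did. They lay below 1 for 1 gene, Hk2, in the FGR library, where 29.9% of all genes measured did so, and for 0 in the Control library, where 22.4% did. The median log2 ratio of the 10 genes was 1.27 in FGR cells and 1.01 in Control cells, against -0.16 and -0.11 over all genes measured. Hk2 did not follow. It had 350.0 CPM in activated FGR cells, against 431 CPM in the remaining FGR cells (0.812, 0.697 to 0.940), and 349 CPM in activated Control cells, against 393 CPM in the remaining Control cells (0.888, 0.741 to 1.06). Ldhb was lower in activated cells, with ratios of 0.774 (0.654 to 0.910) in FGR cells and 0.642 in Control cells. Ldha accordingly held 43.3% of lactate dehydrogenase UMIs in activated FGR cells (37.2 to 49.5%), against 20.3% in the remaining FGR cells, and 39.9% in activated Control cells (32.5 to 47.6%), against 16.3% in the remaining Control cells.

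Of the neighbouring genes, Slc2a5 was far lower in activated cells, with 41.1 CPM in activated FGR cells, against 213 CPM in the remaining FGR cells (ratio 0.193, 0.119 to 0.295). The lactate exporter gene Slc16a3 was higher there, with 50.8 CPM, against 19.2 CPM in the remaining FGR cells (2.65, 1.72 to 3.91), and Hif1a had a ratio of 1.65 (1.34 to 2.02). Txnip and Ddit4, both higher in the FGR library as a whole, had ratios of 0.423 and 0.422 in activated FGR cells. The values of these neighbouring genes are of the FGR library alone. They include the activated cells that held markers of other cell types, described next.

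**Figure D4:**
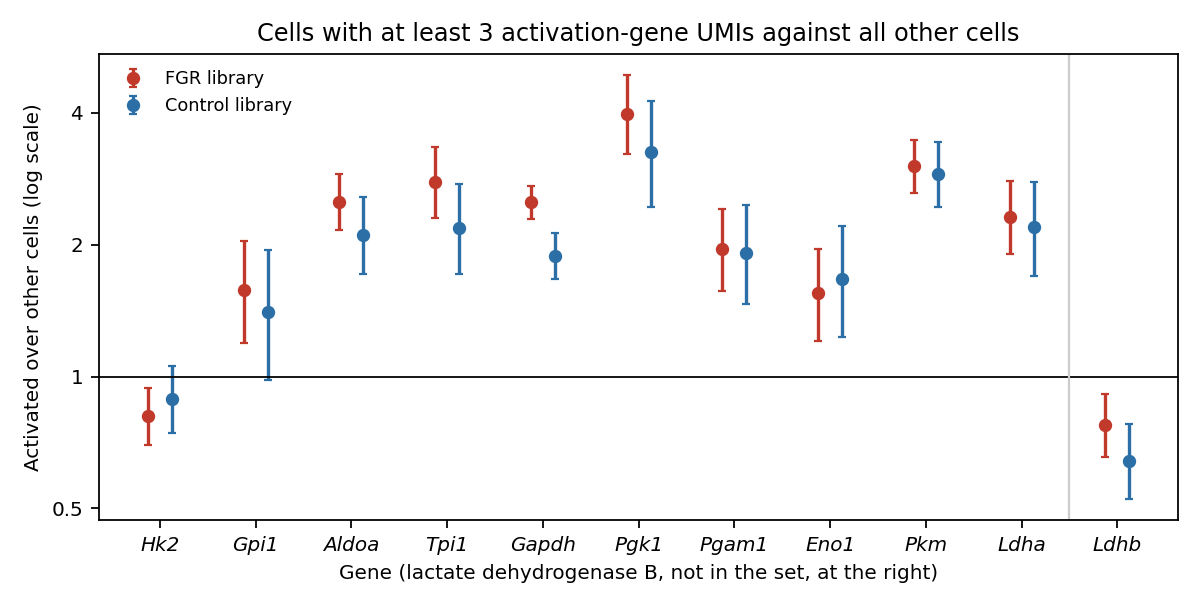
Ratio of activated cells (73 FGR, 60 Control) over the remaining cells of the same library, on a log axis with 95% counting intervals, for the 10 genes and, at the right, Ldhb. Pgk1 and Pkm stand highest, at 2.90 to 3.98, and Hk2 and Ldhb lie below 1 in both libraries.

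Some of these cells carried transcripts of other cell types. Of the activated cells, 14 of 73 FGR and 12 of 60 Control cells held at least 3 UMIs of the markers of other cell types. The vascular and fibroblast markers summed to 1523 CPM in activated FGR cells, against 94.1 CPM in the remaining FGR cells, with 1 of 10 at 0, and to 365 CPM in activated Control cells, against 49.6 CPM in the remaining Control cells, with 3 of 10 at 0. Microglial markers summed to 20492 CPM in activated FGR cells, against 32853 CPM in the remaining FGR cells, and to 25221 CPM in activated Control cells, against 34150 CPM in the remaining Control cells. With the cells holding such markers left out on both sides, whole intervals lay above 1 for 9 genes in each library, with Pgk1 at 4.52 and 3.47. Hk2 was then at 0.958 (0.821 to 1.11) and 0.918 (0.750 to 1.11). Ldha held 42.3% and 40.7% of lactate dehydrogenase UMIs in those 59 FGR and 48 Control cells.

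Aldoc moved with those other markers. It had 80.2 CPM in activated FGR cells, against 4.27 CPM in the remaining FGR cells, and 2.35 CPM once cells holding other types' markers were left out. In activated Control cells it had 27.0 CPM, and 0 UMIs without such cells. Activated cells were also deeper, with medians of 6717 UMIs, against 4912 in the remaining FGR cells, and 5762.5 UMIs, against 4651 in the remaining Control cells. At the same mix of UMI totals, whole intervals again lay above 1 for 9 genes in FGR cells and 8 in Control cells, with Pgk1 at 3.42 and 2.95.

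Cells with many transcripts of the chemokine genes Ccl3 and Ccl4, at least 10 UMIs after thinning, were 2111 FGR cells and 1217 Control cells, and showed a smaller difference of the same direction. The 10 genes summed to 1769 CPM, against 1576 CPM in the remaining FGR cells, and to 1782 CPM, against 1478 CPM in the remaining Control cells. All 10 ratios were above 1 in both libraries. Whole intervals lay above 1 for 9 genes in the FGR library, where 14.7% of all genes measured did so, and for 8 in the Control library, where 15.5% did. Ldha had 1.22 (1.15 to 1.30) in the FGR library and 1.49 (1.37 to 1.61) in the Control library, and Pgk1 had 1.40 and 1.502. Hk2 was again the gene nearest 1, at 1.02 (0.990 to 1.05) and 1.03 (0.992 to 1.08). Pfkfb3 had 1.47 in FGR cells and 1.80 in Control cells. Set against each other, the chemokine-high cells of the 2 libraries had a summed ratio (FGR over Control) of 0.993 (0.970 to 1.02). The remaining cells had 1.07 (1.05 to 1.08). Among chemokine-high cells the whole interval lay above 1 for Hk2 (1.08) and below 1 for Tpi1 (0.830) and Pgam1 (0.891), and held 1 for the other genes.

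Cells with interferon-induced transcripts, 291 FGR cells and 104 Control cells, differed little. Gapdh in the FGR library, at 1.17 (1.09 to 1.251), was the only gene of the 10 whose whole interval lay above 1, where 9.85% of all genes measured did so, and in the Control library 0 of the 10 did, where 6.01% did. Cells with transcripts of proliferation genes numbered 22 in the FGR matrix and 24 in the Control matrix. Gapdh was higher in them, with ratios of 2.28 (1.94 to 2.66) and 1.83 (1.53 to 2.18), the 1 gene in each library with its whole interval above 1, where 11.5% and 12.5% of all genes measured had theirs. Whole intervals lay below 1 for 2 genes in the FGR library, where 15.9% of all genes measured did so, and for 4 in the Control library, where 16.5% did. Hk2 was lower, at 0.529 (0.374 to 0.726) and 0.544 (0.385 to 0.746), and so was Aldoa, at 0.399 (0.191 to 0.734) and 0.516 (0.266 to 0.902).

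Immediate early genes respond within minutes to stimulation, and to the dissociation of tissue. Cells of both libraries were ranked together by their UMIs of 24 such genes and divided into 4 ranges at 38, 57 and 80 UMIs. The FGR cells numbered 1563, 1725, 2080 and 3250 from the lowest to the highest range, and the Control cells 3401, 3087, 2723 and 1476. The summed level of the 10 genes was lower from each range to the next, with 1774, 1762, 1662 and 1472 CPM in the FGR library and 1583, 1509, 1481 and 1420 CPM in the Control library. In the highest against the lowest range, all 10 genes of the FGR library had their whole interval below 1, where 35.4% of all genes measured did, and 7 of 10 in the Control library, where 30.5% did.

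The ratios ran in the FGR library between 0.646 for Tpi1 (0.591 to 0.707) and 0.890 for Hk2, and in the Control library between 0.709 for Pgk1 (0.613 to 0.818) and 1.01 for Gapdh. The lowest range also held more transcripts of other cell types. Oligodendrocyte markers summed to 87.8 CPM in the highest range, against 1038 CPM in the lowest, in the FGR library, and to 169.5 CPM, against 205 CPM, in the Control library. Without cells holding such markers, whole intervals lay below 1 for 10 genes in FGR cells and 6 in Control cells. Within each of the 4 ranges the summed level was higher in the FGR library than in the Control library, with ratios of 1.12, 1.17, 1.12 and 1.04 from the lowest to the highest range.

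Levels also moved with the depth of a cell. Divided into 4 ranges of UMI total at 3896, 4768 and 5853 UMIs, the FGR cells gave 1473, 1502, 1546 and 1784 CPM for the 10 genes together from the lowest to the highest range, and the Control cells 1378, 1421, 1504 and 1650 CPM. In the highest against the lowest range, whole intervals lay above 1 for 8 genes in the FGR library, where 22.7% of all genes measured did so, and for 9 in the Control library, where 22.4% did. Pgk1 had 1.76 (1.52 to 2.03) and 1.58 (1.39 to 1.80), and Pkm 1.5003 (1.38 to 1.63) and 1.64 (1.52 to 1.77). Hk2 alone had its whole interval below 1, where 33.7% of all genes measured did in FGR cells and 31.1% in Control cells. Its ratios were 0.809 (0.776 to 0.845) and 0.895 (0.860 to 0.931). Between 4768 and 5853 UMIs the summed level was 1.03 times as high in FGR as in Control cells (1.01 to 1.05). The median log2 ratio (FGR over Control) of the 10 genes there was -0.03. Whole intervals lay above 1 for Hk2 (1.13), Aldoa (1.15) and Ldha (1.11), and below 1 for Tpi1 (0.876), Pgk1 (0.878) and Pkm (0.894).

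**Figure D5:**
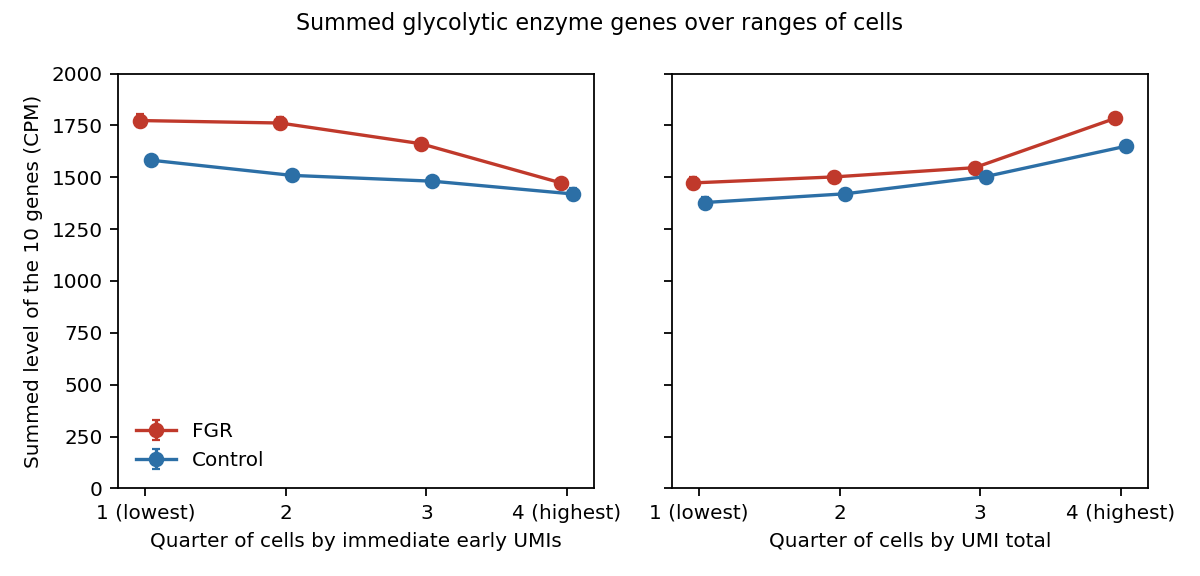
Summed level of the 10 genes in UMI counts-per-million over 4 ranges of cells, ordered by immediate early UMIs (left) and by UMI total (right), with 95% counting intervals. By this sum, though not for every single gene, the FGR library lies above the Control library in all 8 ranges. The left panel is lowest in the range highest in immediate early UMIs, at 1472 and 1420 CPM. The right panel is highest in the deepest cells, at 1784 and 1650 CPM.

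The spread from cell to cell was above that of counting alone for the summed set and for most single genes. At 1500 UMIs a cell held on average 2.37 UMIs of the set in FGR cells and 2.21 in Control cells, and the variance over the mean, which is 1 for counting alone, was 1.41 and 1.37. Among single genes it was highest for Hk2, 1.28 and 1.22, and lowest for Gpi1, 0.989 and 1.01. Thinning draws this value toward 1, and at 3000 UMIs a cell it was 1.58 and 1.41 for Hk2 and 1.04 and 1.02 for Gpi1. Correlations over cells are given as a description only, since the counts are sparse and cells of 1 library share its depth and free RNA. The Pearson r of a gene with the summed other 9 had a median of 0.0948 in FGR cells and 0.0883 in Control cells. Hk2 had the lowest r of the 10, -0.0248 and 0.0141. Among pairs of genes the highest r was 0.109, between Gapdh and Pkm in the FGR library, and 0.0702, between Gapdh and Ldha in the Control library.

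Genes outside the set were ranked by the smaller of the 2 libraries' r with the summed set, over 8618 FGR and 10687 Control cells. The 10 highest were the tetraspanin genes Cd63 (r of 0.199 in FGR cells and 0.178 in Control cells) and Cd9 (0.175 and 0.172), the cathepsin genes Ctsd, Ctsb and Ctsz, Mif (0.178 and 0.132), the ferritin heavy chain gene Fth1, the endoplasmic reticulum chaperone genes Sdf2l1 and Hspa5, and Cyba, which codes a subunit of the phagocyte NADPH oxidase. The median r of the 3503 other genes was -0.00314 in FGR cells and -0.00368 in Control cells. All 10 of these genes had FGR over Control ratios above 1, where 33.9% of all genes measured did. The ratios ran from 1.01 for Hspa5 (1.001 to 1.03) to 1.49 for Sdf2l1. At the other end P2ry12, a purine receptor gene of resting microglia, had an r of -0.0785 and -0.0944; it was chosen after its value was seen.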

How the data were processed

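The authors deposited matrices of raw UMI counts for all barcodes, neither normalized nor filtered, and per the file headers Cell Ranger 4 wrote them. The submitters' processing notes give Cell Ranger 3.0 and Seurat 5.0 with build mm10. Annotation and strand setting were not given in the sources used here. Counts of 38 symbols with more than 1 gene ID, Aldoa among them, were summed. UMIs were summed over the cells of each library (45441515 FGR, 53560293 Control) and scaled to CPM. At this depth the widest half-width of a ratio's interval among the 10 genes was 5.77%.

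Levels have exact Poisson intervals, ratios exact conditional intervals and shares Clopper-Pearson intervals, at 95%. With 1 library a group no test was possible. Ranges of cells came from counts of listed genes, after thinning to 1500 UMIs with a fixed seed, without clustering. Doublets were not called or removed; results were also computed without the 6% deepest cells. Calculations (Python 3.11.15, numpy 2.4.6, pandas 2.3.3, scipy 1.17.1) were tested on simulated data. Coordinates came from GENCODE M21 and promoters from RefSeq, both GRCm38.

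The genes and lists were chosen with earlier results of these data known. The 1.1-fold size was also chosen with such knowledge, because the median ratio of a glycolysis list in these data was known to be small. Named besides the 10 genes were 18 pathway genes fixed by name, from each other pathway list up to 3 measured genes furthest from 0 in log2 ratio, and the 10 genes of highest likeness. Eno3, the genes with 0 UMIs, Slc2a8 and Bsg were named to complete a step or list, after their values were seen.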

Additional observations from a re-analysis of the deposited data

How the results depend on the processing

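Over 11 alternatives, the 10 genes gave 110 ratios of FGR over Control. Of genes whose interval excluded 1, 0 changed side, 96 values were above 1, and 86 stayed within the counting interval of the value reported. The median log2 ratio of the measured genes ran between 0.035 without the 6% of cells with the most UMIs and 0.16 averaged over the 4 ranges of immediate early UMIs, with 0.15 when scaled by the median of ratios; the cause was not tested. The number past 1.1-fold higher in the FGR library was 0 without the deepest cells, 0 thinned to 1500 UMIs, 0 averaged over the 4 ranges of UMI total, 4 scaled by the median of ratios and 4 averaged over the ranges of immediate early UMIs. The share of Aldoa was 98.2% in the FGR library without cells holding other types' markers and 96.0% in the Control library with free RNA subtracted. The median r was 0.142 in FGR cells and 0.143 in Control cells when cells were thinned to 3000 UMIs. At the smaller size tried in place of 1.5-fold, 0 genes passed in either direction. The 7 genes with their whole interval above 1 became 4 when averaged over ranges of UMI total, where Gapdh (0.988 to 1.03), Pgk1 (0.956 to 1.09) and Pkm (0.986 to 1.065) held 1. They became 5 without the deepest cells (Pgk1 and Pkm lost) and 5 thinned to 1500 UMIs (Pgk1 and Ldha lost), and 9 when scaled by the median of ratios or averaged over immediate early ranges. Tpi1 ran from 0.896 to 0.987, and its interval held 1 when scaled by the median of ratios (0.943 to 1.03) and averaged over immediate early ranges (0.945 to 1.03). Leaving Fabp5 out of the activated list, leaving out cells with other types' markers and matching UMI totals were chosen after seeing the data. No paired analysis was possible because the labels carry no replicate numbers and each group is 1 library, and for the same reason no replicate could be left out. The number of cells limits the activated and proliferation ranges most, which hold 22 to 73 cells of a library.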

Other observations

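Gys1, which codes the muscle-type glycogen synthase, was below the minimum level but differed more than any of the 10 enzyme genes, with 8.96 CPM in the FGR library and 21.8 CPM in the Control library (ratio 0.410, 0.366 to 0.460). Gpd1, coding the cytosolic glycerol 3-phosphate dehydrogenase, had 15.4 CPM in the FGR library and 7.36 CPM in the Control library (2.09, 1.84 to 2.37). Among low HIF targets, Ndrg1 had 186 UMIs in the FGR library and 23 UMIs in the Control library (9.53, 6.16 to 15.4), Bhlhe40 had a ratio of 4.65 (2.74 to 8.29), and Ankrd37 was lower in the FGR library at 0.626 (0.517 to 0.757). These genes were chosen after their values were seen.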
